A study of Homo sapiens with 9 samples.

Results

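RNF4 is the ubiquitin ligase that the degrader in this study was built to bind. The genes described here are RNF4 and 8 further genes of the SUMO pathway, namely SUMO2, SUMO3, SAE1, PIAS1, PIAS2, SENP1, SENP3 and PML. They were taken by gene name from the deposited table, which lists 62710 genes, and all 9 have a row in it and passed the filter on low values. SUMO is a small protein that is joined to lysines of other proteins, as ubiquitin is. An E1 enzyme, of which SAE1 is a subunit, activates it, an E2 enzyme transfers it with the help of E3 ligases such as the PIAS proteins, and SENP proteases cut it off again. RNF4 reads chains of SUMO2 and SUMO3 on a protein and adds ubiquitin to it, and PML, the scaffold of nuclear bodies, is its best known substrate.

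RNA was sequenced from A375R, human melanoma cells that resist the BRAF inhibitor PLX4032 and are grown in its presence. Cells were exposed for 2 h to 10 µM R4VPL3-1, the complete degrader, which joins an RNF4 binder by a linker to a ligand of the VHL ubiquitin ligase, or for 2 h to 10 µM VHL-r, the VHL ligand without the RNF4 binder. The controls received DMSO according to the study design, but their library titles carry WT and no dose or time. The column names of the table give 2 h for 2 of the 3 control libraries and no time for the other. Each treatment had 3 libraries from separate biological replicates of the 1 cell line, 9 in all. Whole reads recovered from the deposited values summed to between 26435568 and 32085626 a library. Of the markers of melanoma, SOX10, MITF and the pigment gene DCT were present in every library, at 7900.4 to 17935, 893 to 1994 and 914 to 1782 normalized counts. S100B had 584 to 772. PMEL had only 20.9 to 36.8 and TYRP1 1.07 to 33.6, while MLANA was listed at 0 in all 9 and TYR did not exceed 2.14. Whether the markers share exons with other genes was not examined, so the listed 0 alone does not show that MLANA RNA was absent. AXL, NGFR and EGFR, markers of dedifferentiated melanoma, had 9240 to 12114, 797 to 1175 and 454 to 632. SOX10 fell by 0.79 on the log2 scale after VHL-r and fell by 1.06 after R4VPL3-1, and the differences of MITF were -0.71 and -0.77, each against DMSO (limma adjusted p = 3.14e-09, 1.56e-11, 4.02e-05 and 9.87e-06). AXL differed from DMSO by -0.17 after VHL-r and by -0.17 after R4VPL3-1 (limma adjusted p = 0.0374 and 0.0307). After R4VPL3-1, NGFR was lower (-0.31) and EGFR higher (0.31) than in DMSO (limma adjusted p = 0.00447 and 0.0145). Between the compounds SOX10 was the only marker called, at -0.28 for R4VPL3-1 against VHL-r (limma adjusted p = 0.00951). DCT, PMEL and S100B were not called in any comparison. The part of these markers in the differences was not tested. PTPRC, EPCAM and PECAM1, which mark blood, epithelial and endothelial cells, did not exceed 11.8, 9.13 and 10.1, and COL1A1, a collagen gene of fibroblasts, had 729 to 1635 and was not called in any comparison. The files hold RNA levels only, and in bulk RNA fewer cells that express a gene and less RNA per cell cannot be told apart.

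Stretches of promoter are shown for the members that were lower after R4VPL3-1, since the E-box CACGTG, the heat shock element GAANNTTC and the AP-1 site TGANTCA were searched for in them. RefSeq promoters of GRCh38.p14 matched 7 of the 9 members, SAE1 and PML being without an entry, and the 250 bases before each start were read on both strands. The stretches are printed 5′ to 3′ on the strand of the gene and leave out bases that GENCODE annotates as exon. They are SUMO2 at chr17:75182960-75183209 on the minus strand, SUMO3 at chr21:44818130-44818312 on the minus strand and SENP3 at chr17:7561669-7561918 on the plus strand. The stretches of SUMO2 and SENP3 lie before the annotated span of the gene, whereas that of SUMO3 lies inside it.
SUMO2: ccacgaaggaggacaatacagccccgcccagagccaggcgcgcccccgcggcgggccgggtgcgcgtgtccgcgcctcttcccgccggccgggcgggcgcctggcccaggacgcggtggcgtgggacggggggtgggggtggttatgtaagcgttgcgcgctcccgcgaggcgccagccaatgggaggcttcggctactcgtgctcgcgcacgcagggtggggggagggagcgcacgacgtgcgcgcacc
SUMO3: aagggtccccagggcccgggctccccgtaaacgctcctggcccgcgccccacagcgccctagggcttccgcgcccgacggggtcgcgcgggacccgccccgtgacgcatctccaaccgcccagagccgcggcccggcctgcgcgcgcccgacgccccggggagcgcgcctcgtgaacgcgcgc
SENP3: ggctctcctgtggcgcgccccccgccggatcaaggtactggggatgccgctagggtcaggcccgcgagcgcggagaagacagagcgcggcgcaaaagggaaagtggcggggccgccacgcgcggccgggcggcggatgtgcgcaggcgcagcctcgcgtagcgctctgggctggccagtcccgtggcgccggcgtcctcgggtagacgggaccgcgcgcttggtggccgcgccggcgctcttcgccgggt
None of the 3 motifs occurs in the SUMO2 or the SENP3 window. The SUMO3 window holds 1 E-box, in capitals in the following 26 bases at chr21:44818111-44818136, which lie before the RefSeq start but inside the span that the table gives SUMO3, and the E-box itself is in bases that GENCODE annotates as exon.
SUMO3 E-box: cgcgcgcagcCACGTGacccccgtgc
Over 35116 RefSeq promoters of the same length, 6.34% hold the E-box, 5.78% the heat shock element and 6.57% the AP-1 site. The windows are rich in G and C, at 76.4% for SUMO2, 78.8% for SUMO3 and 76% for SENP3. Among the other members, the RNF4, PIAS1 and SENP1 windows hold none of the motifs, and 1 of the PIAS2 windows holds an AP-1 site.

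The level of RNF4 RNA did not differ detectably between treatments. RNF4 lies at chr4:2462220-2515857 on the plus strand of GRCh38. Its normalized counts, which are reads divided by a size factor for each library, were 466, 383 and 372 in the DMSO libraries. They were 433, 448 and 408 after VHL-r and 382, 444 and 395 after R4VPL3-1. The ranges of all 3 treatments overlapped, and the highest value of all was that of DMSO replicate 1. The means were 407 ± 51.3 in DMSO, 429 ± 20.2 after VHL-r and 407 ± 32.6 after R4VPL3-1 (SD, n = 3 each).

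On the scale of log2(normalized count + 1), RNF4 differed from DMSO by 0.084 after VHL-r, with a 95% interval of -0.11 to 0.28 and an adjusted p of 0.606 in limma. After R4VPL3-1 the difference from DMSO was 0.0043, with an interval of -0.19 to 0.20 and a limma adjusted p of 0.983. The degrader and its VHL ligand, compared at the same dose and time, differed by -0.080 in RNF4 RNA, with an interval of -0.27 to 0.11 and a limma adjusted p of 0.894. In percent, the intervals ran from -7.37% to 21.3% for VHL-r against DMSO and from -12.4% to 14.8% for R4VPL3-1 against DMSO. Differences inside these bounds remain compatible with the data from 3 libraries each. An exact permutation test of 3 libraries against 3 cannot give a p under 0.1. RNF4 was read 367 to 513 times a library, so that counting error alone gives a coefficient of variation of 5.22% at its lowest count. Of its exon bases, 6.74% are shared on the same strand with an unnamed gene, and reads there could not be assigned to either.

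**Figure D1:**
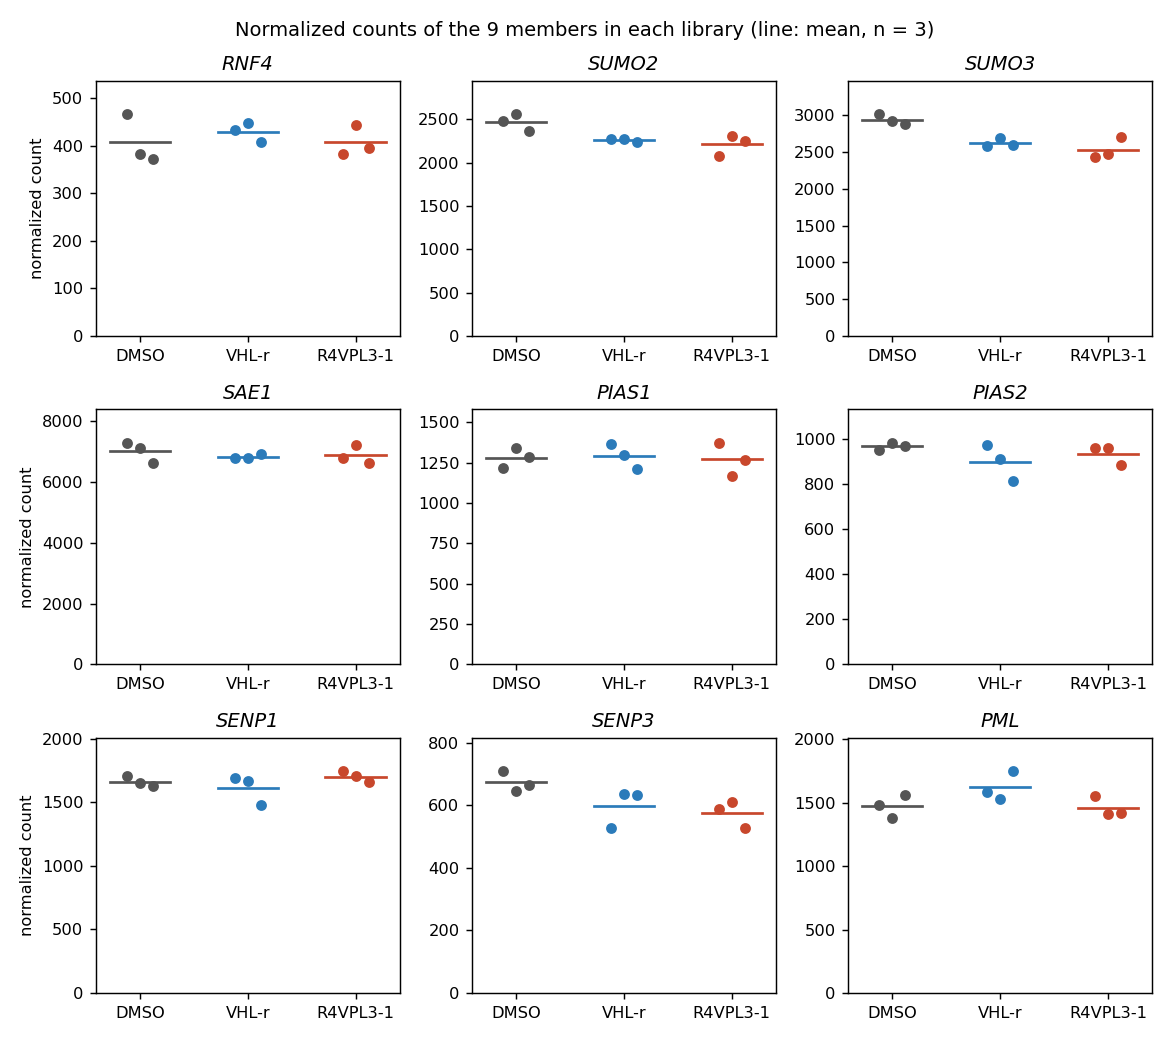
Normalized counts (vertical axes, from 0) of the 9 members in the 3 libraries of each treatment (points) with the mean as a line. RNF4 overlaps between all treatments, and SUMO2, SUMO3 and SENP3 lie higher in the 3 DMSO libraries than in any other library.

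The members with lower RNA after the compounds were the SUMO modifiers SUMO2 and SUMO3 and the protease SENP3. Against DMSO, limma called 1 of the 9 members after VHL-r, SUMO3, and 3 after R4VPL3-1, SUMO2, SUMO3 and SENP3, all lower, with the adjusted p (Benjamini-Hochberg) required to be 0.05 or less. Of all 15230 genes tested, 19.8% were called for VHL-r, 9.51% as lower, and 24.9% for R4VPL3-1, 11.8% as lower. For VHL-r the members called were 11.1% of the 9, beside the 19.8% of all genes called in either direction. For R4VPL3-1 they were 33.3%, beside 24.9%. The shares called lower are given with the direction of the members already known. The list as a whole was not tested. The same 3 genes were also the members whose DMSO and treated libraries did not overlap, in either comparison. Over all genes tested, 17.2% were lower in that way after VHL-r and 18.9% after R4VPL3-1. A further 17.1% and 19.1% were higher without overlap, so groups that do not overlap were common in either direction. The median log2 difference of the members was -0.048 for VHL-r and -0.027 for R4VPL3-1, beside -0.0045 and -0.0063 over all genes tested. Both comparisons share the DMSO libraries.

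SUMO3 was the member whose lower level held in all settings of the test after R4VPL3-1. It encodes a modifier nearly identical to SUMO2 in its mature form, and the gene lies at chr21:44805617-44818779 on the minus strand. Its normalized counts were 3016, 2926 and 2885 in DMSO. After VHL-r they were 2589, 2694 and 2604, and after R4VPL3-1 they were 2429, 2473 and 2700.0. Every treated library lay below every DMSO library, and the treatments overlapped each other. The level fell by 13.9% after R4VPL3-1 (log2 difference -0.22, SE 0.049, limma adjusted p = 0.00237). After VHL-r it fell by 10.6% (log2 difference -0.16, SE 0.049, limma adjusted p = 0.0234). The call for R4VPL3-1 stood in 21 of 21 alternative settings. The call for VHL-r was lost when DMSO replicate 1, DMSO replicate 2, VHL-r replicate 1 or VHL-r replicate 3 was left out (limma adjusted p = 0.0926, 0.0625, 0.0702 and 0.056).

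SUMO2 is the other SUMO that forms the chains RNF4 binds, and its gene lies at chr17:75165586-75182959 on the minus strand. Its normalized counts were 2486, 2559 and 2364 in DMSO. They were 2276, 2272 and 2238 after VHL-r and 2080.4, 2312 and 2246 after R4VPL3-1. All 6 treated libraries lay below the lowest DMSO library. The level fell by 10.4% after R4VPL3-1 (log2 difference -0.16, SE 0.051, limma adjusted p = 0.0263), whereas the difference of -0.13 after VHL-r missed the threshold (limma adjusted p = 0.0934). The difference between those 2 effects is the direct contrast of the compounds, -0.033 with an interval of -0.14 to 0.074. The call for R4VPL3-1 was lost without DMSO replicate 1, DMSO replicate 2 or R4VPL3-1 replicate 1 (limma adjusted p = 0.072, 0.13 and 0.168). Of the 100-base windows of the SUMO2 transcript, 3.75% occur letter for letter in genes elsewhere, most often in the pseudogene SUMO2P1, and reads from such windows cannot be placed with certainty.

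SENP3, a SUMO protease of the nucleolus that prefers SUMO2 and SUMO3, lies at chr17:7561919-7571969 on the plus strand. Its normalized counts were 708, 645 and 665 in DMSO. After VHL-r they were 527, 636 and 633, and after R4VPL3-1 they were 587, 611 and 527. Again no treated library reached the lowest DMSO library, although VHL-r replicate 2 and DMSO replicate 2 were close. SENP3 fell by 14.6% after R4VPL3-1 (log2 difference -0.23, SE 0.082, limma adjusted p = 0.0477), and after VHL-r the difference was -0.17 (limma adjusted p = 0.162). The R4VPL3-1 call held in only 9 of 21 alternative settings and was lost with edgeR and with DESeq2 on the recovered reads (adjusted p = 0.0563 in edgeR and 0.0677 in DESeq2).

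The count of SENP3 covers only part of the gene. On the same strand, 41.7% of its exon bases are shared with the read-through gene SENP3-EIF4A1, and the counting does not assign reads on shared exons. SENP3-EIF4A1, named here after its values were seen, had 22.7, 17.7 and 21.3 normalized counts in DMSO, 32.0, 49.4 and 27.7 after VHL-r and 62.6, 28.9 and 32.1 after R4VPL3-1. Its log2 difference from DMSO was 0.76 after VHL-r (limma adjusted p = 0.0725) and 0.89 after R4VPL3-1 (SE 0.29, limma adjusted p = 0.0277). The treatment means were thus higher where those of SENP3 were lower. Single libraries did not all follow this, since VHL-r replicate 2 had the highest value of both genes among the VHL-r libraries. The call of SENP3-EIF4A1 for R4VPL3-1 held in 16 of 20 alternative settings. It was lost without R4VPL3-1 replicate 1 (log2 difference 0.55, limma adjusted p = 0.218), without DMSO replicate 2 (limma adjusted p = 0.0978), without the filter (limma adjusted p = 0.0716) and in DESeq2 with a replicate term (adjusted p = 0.0748). The part of this gene in the SENP3 result was not tested. EIF4A1 itself, an initiation factor encoded next to SENP3, is listed at 0 in all 9 libraries, and 47.4% of its exon bases are shared with other genes on its strand. Of the 100-base windows of its canonical transcript, 100% also occur in other annotated genes. The listed 0 therefore does not show that EIF4A1 RNA was absent.

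**Figure D2:**
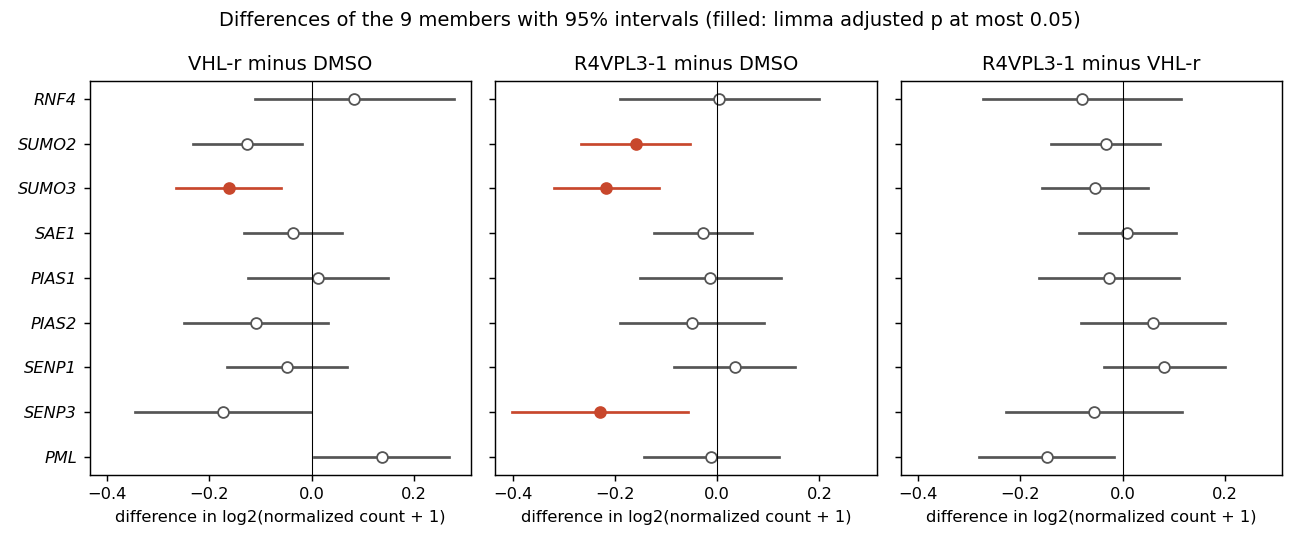
Difference in log2(normalized count + 1) of each member (horizontal axis) with its 95% interval in the 3 comparisons, from the limma fit over all genes; filled red points have an adjusted p of at most 0.05. SUMO3 is filled in the left panel, SUMO2, SUMO3 and SENP3 in the middle one and no member in the right one.

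None of the other members was called against DMSO. SAE1, a subunit of the heterodimeric E1, had 7286, 7109 and 6627 normalized counts in DMSO, 6772, 6796 and 6916 after VHL-r and 6781, 7215 and 6628 after R4VPL3-1. These ranges overlapped throughout, and its intervals were the narrowest of the 9, from -0.13 to 0.059 for VHL-r and from -0.12 to 0.068 for R4VPL3-1 against DMSO. In percent the outermost of these bounds were -8.71% and 4.80%.

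The E3 ligases PIAS1 and PIAS2, which also act as cofactors of transcription factors, overlapped between treatments. PIAS1 had 1217, 1341 and 1283 normalized counts in DMSO, 1367, 1300.5 and 1209.6 after VHL-r and 1374, 1169 and 1268 after R4VPL3-1. PIAS2 had 949, 983 and 967 in DMSO, 973, 911 and 813 after VHL-r and 959, 958 and 886 after R4VPL3-1. VHL-r replicate 3 had the lowest PIAS2 value of the 9 libraries. The PIAS1 log2 differences from DMSO were 0.013 and -0.013, and those of PIAS2 were -0.11 and -0.049, for VHL-r and R4VPL3-1 (limma adjusted p = 0.926, 0.916, 0.308 and 0.657).

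SENP1, a protease that both matures SUMO precursors and releases SUMO from its targets, had 1709, 1649 and 1633 normalized counts in DMSO. It had 1689, 1669 and 1478 after VHL-r and 1745, 1705 and 1659 after R4VPL3-1. VHL-r replicate 3 was again the lowest library. Neither log2 difference from DMSO passed (-0.048 and 0.034 for VHL-r and R4VPL3-1, limma adjusted p = 0.635 and 0.720).

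PML had 1479, 1378 and 1564 normalized counts in DMSO, 1589, 1527 and 1749 after VHL-r and 1554, 1414 and 1417 after R4VPL3-1. Its highest value was in VHL-r replicate 3, yet the DMSO range reached into that of VHL-r. The difference from DMSO was 0.14 after VHL-r, with an interval of 0.0058 to 0.27 before adjustment and a limma adjusted p of 0.145, and -0.011 after R4VPL3-1 (limma adjusted p = 0.926). Among the members PML had the largest difference between the compounds, -0.15 for R4VPL3-1 against VHL-r, with an interval of -0.28 to -0.017 and a limma adjusted p of 0.400.

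R4VPL3-1 and VHL-r, the only pair of compounds sequenced, differ by the RNF4 binder and linker that VHL-r lacks. Set against each other at 10 µM and 2 h, no member was called in limma, in a comparison in which 1.87% of all genes tested were called. In limma, 1 of 9 members, PML, had an unadjusted p under 0.05, as did 1508 of all 15230 genes tested. In edgeR and in DESeq2 on the recovered reads the count of members called was also 0. For no member were the libraries of the compounds fully separated, as they were for 14.1% of all genes tested. The log2 differences of the members ran from -0.15 for PML to 0.082 for SENP1, with a median of -0.033. The interval of the difference was -0.16 to 0.049 for SUMO3, -0.14 to 0.074 for SUMO2, -0.23 to 0.12 for SENP3 and -0.086 to 0.10 for SAE1. The intervals for PIAS1 and PIAS2 were -0.16 to 0.11 and -0.082 to 0.20, and that for SENP1 was -0.036 to 0.20. The data therefore bound how far the compounds can differ on these genes and do not show that they act alike.

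Members also differed widely in their level. To compare genes, normalized counts were divided by the length of the canonical transcript in kilobases. In DMSO, SAE1 was highest at 2779 ± 135 normalized counts per kilobase (SD, n = 3), followed by SUMO3 at 1691 ± 38.4 and SUMO2 at 780.1 ± 31.2. SENP1 had 373 ± 9.02, PML 265 ± 16.7, SENP3 262 ± 12.5 and PIAS1 160.4 ± 7.79. RNF4 had 139 ± 17.6, and PIAS2 was lowest at 86.0 ± 1.51. RNF4 thus ranked 8 of 9, far below the SUMO genes whose products it binds. Over all 9 libraries, neighbours in this order overlapped only between PML and SENP3 and between PIAS1 and RNF4. The order and these gaps depend on the length chosen, because reads were counted over all annotated exons. Those span 12672 bases for PML and 3624 for SENP3, beside canonical lengths of 5565 and 2567. Other lengths were not tested. The value for SENP3 leaves out reads on its shared exons.

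The genes whose pattern over the 9 libraries was most like that of RNF4 were PIM1, FGD1, STEAP3, ICA1L and ARHGEF18. Likeness was the root mean square difference of the log2 levels after each gene was centred on its mean, the members being left out. It was 0.042 for PIM1, a serine/threonine kinase, and 0.051, 0.053, 0.054 and 0.055 for the others in that order. Over the 15221 genes compared the median was 0.174, and the SD of RNF4 itself over the 9 libraries was 0.117 on the log2 scale. Within treatments its SD was 0.127, so the pattern matched is mostly that of differences between replicates. With so many genes and 9 libraries, some close matches are bound to occur. Shared regulation with RNF4 was not tested.

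The rest of the pathway was read from a list of 32 further genes, of which 30 passed the filter and SUMO4 and TOPORS are listed at 0 in all libraries. Against DMSO, 5 of the 30 were called after VHL-r, 4 higher and 1 lower, and 9 after R4VPL3-1, 6 higher and 3 lower. These are 16.7% and 30% of the genes of the list that were tested, beside the 19.8% and 24.9% of all genes tested given above, of which 10.3% and 13.1% were called higher. Libraries were fully separated from DMSO and higher for 6 and 12 of the 30 genes, for VHL-r and R4VPL3-1. Of all 15230 genes tested, 2601 and 2911 were (17.1% and 19.1%). They were separated and lower for 2 and 3 of the 30, against 2616 and 2884 of all genes tested (17.2% and 18.9%). The shares of the list were thus larger for higher and smaller for lower genes, and the list as a whole was not tested. The list's median log2 difference was 0.056 for VHL-r and 0.046 for R4VPL3-1. Between the compounds none of the 30 was called in limma. Only 1, USPL1, had an unadjusted p under 0.05, beside 1508 of all 15230 genes tested.

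Among the E3 ligases, 2 of 8 tested were higher after either compound, and 1 was lower after R4VPL3-1. Of all genes tested, 10.3% and 13.1% were called higher and 9.51% and 11.8% lower, for VHL-r and R4VPL3-1. Roles with so few genes, here and below, were not tested as sets. PIAS3, the relative of PIAS1 and PIAS2 named for its binding to STAT3, had 1310.3, 1309 and 1400.4 normalized counts in DMSO, 1629, 1610.4 and 1601 after VHL-r and 1636, 1530.2 and 1526 after R4VPL3-1. Every treated library lay above every DMSO library. PIAS3 was higher than DMSO by 0.27 and 0.22 on the log2 scale, for VHL-r and R4VPL3-1 (limma adjusted p = 0.000841 and 0.00343). The PIAS-like gene ZMIZ1 was higher by 0.17 and 0.18 (limma adjusted p = 0.0136 and 0.00703), and its call for VHL-r was lost without DMSO replicate 2 (limma adjusted p = 0.0684). MUL1, a ligase of the outer mitochondrial membrane, was lower after R4VPL3-1 by -0.24 (limma adjusted p = 0.00778), and without R4VPL3-1 replicate 1 that call was lost (limma adjusted p = 0.0534).

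UBA2, the other subunit of the E1, was not called in any comparison, with 10296 to 11218 normalized counts over the 9 libraries.

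Among 7 proteases tested, DESI2 was higher after VHL-r and both DESI2 and USPL1 after R4VPL3-1. DESI2 rose by 0.30 and 0.29 on the log2 scale (limma adjusted p = 0.000133 and 0.000134). USPL1, a SUMO protease of Cajal bodies, had 868, 983 and 1020.1 normalized counts in DMSO, 1107, 1097 and 897 after VHL-r and 1398, 1213 and 1142 after R4VPL3-1. The R4VPL3-1 libraries were all above the other libraries, and the log2 difference from DMSO was 0.38 (limma adjusted p = 0.00194). Of the SENP family, SENP2, SENP5, SENP6 and SENP7 did not pass in any comparison.

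Among the partners of the SUMO-targeted ubiquitin ligases, UBE2D1, an E2 of the family with which RNF4 works, was higher. Its normalized counts were 563, 660.2 and 563 in DMSO, 868, 732 and 788 after VHL-r and 783, 767 and 805 after R4VPL3-1. The groups did not overlap with DMSO, and the log2 differences were 0.42 and 0.40 (limma adjusted p = 0.000418 and 0.000476). Its close relatives UBE2D2 and UBE2D3 were not called. UBE2N, the E2 that makes chains linked through lysine 63, was lower after R4VPL3-1 by -0.15 (limma adjusted p = 0.0132), which was lost without DMSO replicate 2 or R4VPL3-1 replicate 1 (limma adjusted p = 0.0881 and 0.074). UFD1, a cofactor of the VCP segregase, was higher after R4VPL3-1 by 0.13 (limma adjusted p = 0.0447), and this call held in 12 of 21 alternative settings. RNF111, the other SUMO-targeted ligase on the list, was not called.

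Of the 4 other genes of PML bodies, DAXX, a histone chaperone that binds SUMO, was lower after both compounds. It had 2810.5, 2555 and 2659.9 normalized counts in DMSO, 2233, 2159.8 and 2406 after VHL-r and 2077, 2199 and 2133 after R4VPL3-1. All treated libraries lay below all DMSO libraries. The level fell by 15.3% after VHL-r (log2 difference -0.24, limma adjusted p = 0.00236). After R4VPL3-1 it fell by 20.1% (log2 difference -0.32, limma adjusted p = 9.46e-05). DAXX shares 14.3% of its exon bases on the same strand with an unnamed gene. SP100, ATRX and HIPK2 were not called.

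**Figure D3:**
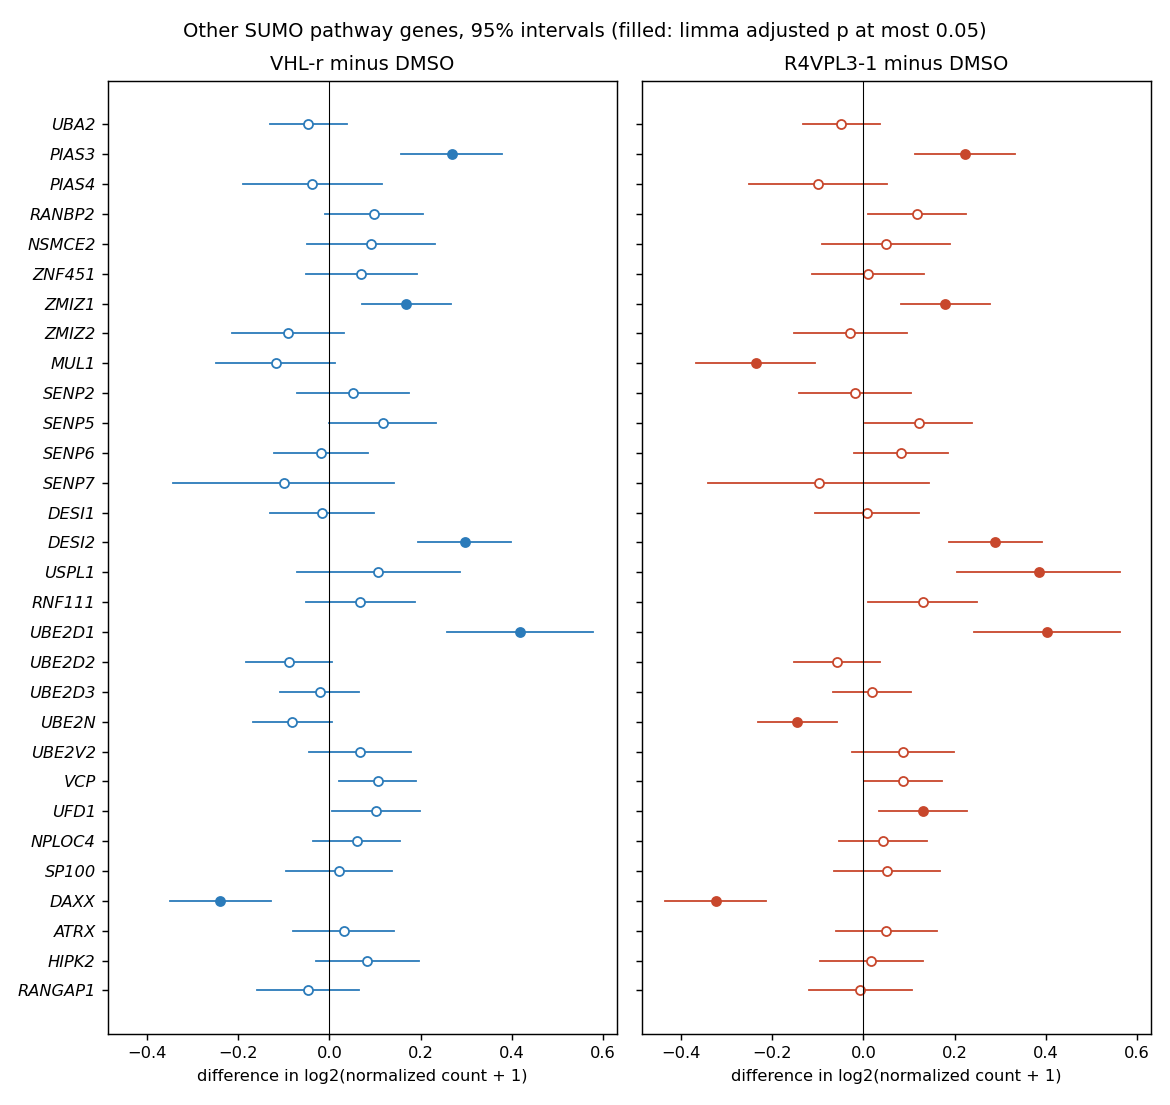
Difference from DMSO in log2(normalized count + 1) (horizontal axes) with 95% intervals for the 30 other pathway genes tested, after VHL-r (left) and R4VPL3-1 (right), ordered by role; filled points have a limma adjusted p of at most 0.05. UBE2D1 lies farthest to the right in both panels, at 0.42 and 0.40, and DAXX farthest to the left, at -0.24 and -0.32.

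A further 6 genes, which the introduction of the study names together with RNF4, were also read and were chosen with their values known. MYC, CTNNB1 (beta-catenin) and JUN encode oncoproteins of transcription, BMP6 and RGMB a secreted ligand and its co-receptor, and VEGFA a growth factor of blood vessels. MYC had 1253, 1254 and 1049 normalized counts in DMSO, 379, 429.6 and 408 after VHL-r and 320.3, 401 and 321 after R4VPL3-1. It fell by 1.54 on the log2 scale after VHL-r and fell by 1.77 after R4VPL3-1 (limma adjusted p = 1.86e-10 and 9.8e-12), and the compounds differed by -0.23 (limma adjusted p = 0.370). CTNNB1 was not called, with log2 differences from DMSO of 0.042 and -0.046. JUN separated the compounds, with 1195, 1064 and 1229 normalized counts after VHL-r and 23741, 19158 and 12252 after R4VPL3-1, beside 2301, 1813 and 1853 in DMSO (log2 difference of the compounds 3.93, limma adjusted p = 1.14e-13). VEGFA was higher after R4VPL3-1 than after VHL-r by 0.44 (limma adjusted p = 6.14e-05), RGMB was higher than DMSO after VHL-r by 0.19 (limma adjusted p = 0.0200), which was lost in 4 of 9 settings that leave out a library, and BMP6 was not called. RNF4 RNA itself was called in none of the 3 comparisons.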

How the data were processed

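RNA-seq was done by the study in 9 libraries of the A375R line. The authors aligned reads of 100 bases to GRCh38 with STAR, counted them by gene with htseq-count (reverse mode), which keeps strand but drops reads on exons of several genes, and deposited a normalized signal, reads divided by DESeq2 (version 1.36.0 per the labels) size factors. Whole reads were recovered from it for 100% of values, within 0.1 of a read. The main test was limma 3.58.1 with trend in R 4.3.3 on log2(value + 1), a pseudocount of 1, over the 15230 genes whose mean reached 10, in 1 fit of all 9 libraries without a block. Fold changes are on that scale. edgeR 4.0.16 and DESeq2 1.42.0 on recovered reads were among the alternatives. The scripts were tested on simulated data. Members and gene lists were chosen with earlier results of these data known. Named were all members, up to 5 other pathway genes called in each direction and contrast, and the 5 genes most like RNF4; SENP3-EIF4A1, EIF4A1, MYC, JUN, CTNNB1, RGMB, VEGFA, BMP6, UFD1 and the pathway genes named as not called lie outside this rule and were chosen after their values were seen. Spans were matched to GENCODE 44, which holds 62639 of the 62710 genes. Some genes of the pathway are not reported here.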

Additional observations from a re-analysis of the deposited data

How the results depend on the processing

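At an adjusted p of at most 0.01, no member was called for VHL-r against DMSO and 1, SUMO3, for R4VPL3-1 against DMSO. Of all 15230 genes tested, 1885 and 2494 were called at that threshold. With 1 library left out, the members called numbered 0 to 1 and 1 to 3 in these comparisons. Over all genes, 2288 to 3210 and 2857 to 3893 were then called, of 15195 to 15258 tested. RNF4 in R4VPL3-1 against DMSO lay close to 0 and was -0.0022 with DESeq2 and -0.060 to 0.11 with 1 library left out. Upper quartile scaling gave PIAS1 0.0043 and PML 0.0064 there, and leaving out 1 library gave PIAS1 -0.071 to 0.045, PML -0.059 to 0.032 and SAE1 -0.067 to 0.0013. In VHL-r against DMSO the range was -0.028 to 0.060 for PIAS1 and -0.083 to 0.014 for SENP1. In R4VPL3-1 against VHL-r it was -0.084 to 0.032 for PIAS1, -0.011 to 0.12 for PIAS2, -0.026 to 0.035 for SAE1, -0.14 to 0.0062 for SENP3 and -0.065 to 0.011 for SUMO2. None of these members was called in those comparisons in the main fit. Counts of the other pathway genes stayed between 4 and 6 for VHL-r and between 6 and 10 for R4VPL3-1, and at 0 between the compounds, in all alternatives run. The cause of the lost calls was not tested, and fits without a library hold fewer samples.

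Same-numbered libraries of different treatments correlated weakly, at -0.0056 to 0.12 in their deviations from the treatment mean. Libraries of different numbers correlated at -0.15 to 0.098. In VHL-r against DMSO each library correlated best with its own number, but not each did in the other comparisons. Whether the replicate numbers pair the libraries was thus not settled. With the replicate block, limma called 1, 3 and 0 members, as without it (DESeq2 with the block 1, 2 and 0), and RNF4 differed by 0.084, 0.0043 and -0.080 (limma adjusted p = 0.564, 0.981 and 0.840). Over all genes the block moved the calls from 3016, 3792 and 285 to 3451, 4241 and 389 in limma, and from 2687, 3372 and 316 to 2454, 3178 and 307 in DESeq2. Within a treatment, libraries differed by more than counting noise, and none looked deposited in duplicate.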

Other observations

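TOPORS, a ligase for both SUMO and ubiquitin, is listed at 0 in all 9 libraries, and 8.42% of its exon bases are shared on the same strand with another annotated gene. Most of its exon bases are thus not shared, and why the listed value is 0 was not tested. SUMO4, a SUMO gene without introns, is also listed at 0 throughout.

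With 3 libraries a treatment, 95% intervals of the members spanned about 0.2 to 0.4 on the log2 scale. The differences seen for SUMO2 and SENP3, and for SUMO3 after VHL-r, thus sit near the limit of what these data can show. That of SUMO3 after R4VPL3-1 was clearer, with an interval of -0.32 to -0.11 and a call in 21 of 21 alternative settings. The comparisons cover RNA at 2 h only and hold no protein level of RNF4 or of SUMO conjugates.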
